A study of Mus musculus with 18 samples.

Results

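Hepatic transcripts for 6 genes of lipoprotein uptake and of the handling of the cholesterol it delivers were measured: the receptors *Scarb1* and *Lrp1*, the receptor-degrading ubiquitin ligase *Mylip*, the lysosomal cholesterol exporters *Npc1* and *Npc2*, and the sterol carrier *Stard4*. They are 6 of the 23352 gene symbols measured and were picked by name for their role, with earlier results of these data known. All 6 had usable estimates in every library, with 1 entry each. The samples were livers of male mice aged 20 weeks on a high-fat diet (HFD), 9 wild-type (WT) and 9 homozygous *Gpr180*KO, with 1 poly(A) RNA library per mouse. The *Gpr180*KO allele was made by genome editing in C57BL/6J eggs, removes an exon and shifts the reading frame in every tissue of the mouse, so that loss in the liver alone is not what the comparison addresses. Mouse names come in a first style (W317HFD, 4 mice per genotype) and a second style (WThfd131, 5 mice per genotype), whose meaning the labels do not give. Levels are FPKM, fragments per transcript length and per library size, which allows genes of different length to be set side by side.

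The liver takes up cholesterol by several routes. Scavenger receptor B1, the product of *Scarb1*, takes cholesteryl esters out of high-density lipoprotein (HDL) without swallowing the particle, the last step of reverse cholesterol transport. The giant receptor LRP1 and its relatives bring lipoprotein remnants in by endocytosis, and MYLIP (also known as IDOL) marks receptors of this family for lysosomal degradation. Its gene is switched on by the sterol-sensing nuclear receptor LXR. In the lysosome, the soluble protein NPC2 picks up freed cholesterol and hands it to the membrane protein NPC1 for export, and STARD4 carries sterol between membranes in the cytosol, its gene being a target of the sterol-controlled factor SREBP2.

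Among the 6 genes, *Scarb1* alone passed the test between genotypes, and it was higher in *Gpr180*KO livers. In the comparison by limma (10835 genes with a mean of at least 1 FPKM, Benjamini-Hochberg adjusted p under 0.05), 1 of 6 members was called higher, where 0.452% of all genes were, and 0 of 6 were called lower, where 4.28% of all genes were. The groups did not overlap for 1 of 6 members, *Scarb1*, with *Gpr180*KO higher, a pattern that 0.0554% of all genes had. For 0 of 6 members did they separate with *Gpr180*KO lower, the pattern of 0.175% of all genes. Before adjustment, 2 members were under 0.05 by limma, *Scarb1* and *Mylip*, as were 2403 of the 10835 genes. On the lower side alone, 19.6% of all genes were. Over all genes tested the median log2 difference between *Gpr180*KO and WT was -0.13, and 76.9% of genes had a negative one. Values below are log2(FPKM + 0.1) differences, *Gpr180*KO minus WT, and are to be read against that median. With median-of-ratios scaling between libraries the median became 0.02, and the calls, 49 higher and 464 lower as deposited, became 146 higher and 147 lower.

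**Figure D1:**
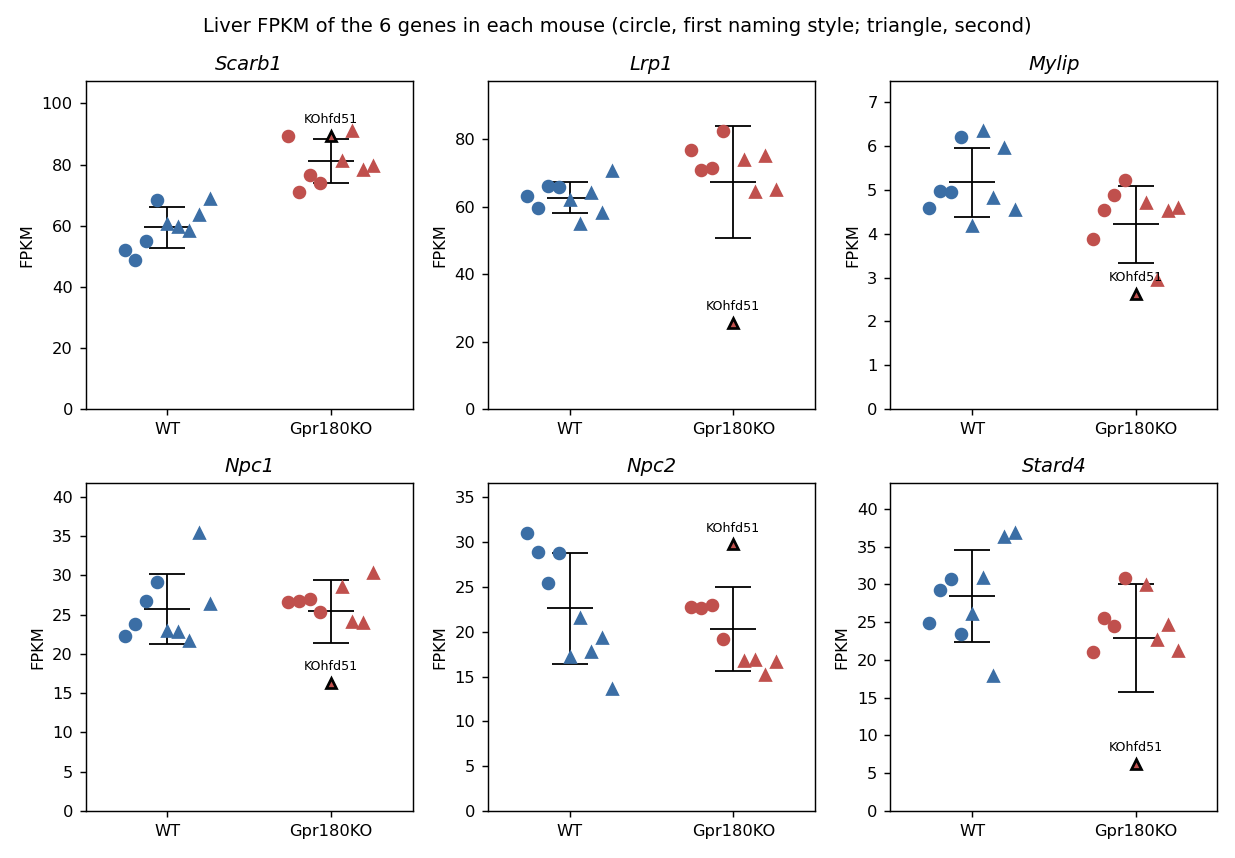
FPKM of each of the 6 genes (vertical axes, from 0) in each liver, WT in blue and Gpr180KO in red, with circles for the first naming style, triangles for the second, and horizontal bars for the mean and 1 SD (n = 9 per genotype). Scarb1 was above 71 FPKM in all 9 Gpr180KO livers and below 69 FPKM in all 9 WT livers, and the liver KOhfd51 was at the bottom of its group for Lrp1, Mylip, Npc1 and Stard4 and at its top for Npc2.

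The target gene *Gpr180* was at 6.79 ± 1.99 FPKM in WT and 1.60 ± 0.37 FPKM in *Gpr180*KO livers (SD, n = 9 each), so the remaining signal was 23.6% of WT. Depth, estimated relative to the deepest library, spanned 60.8 to 100% in WT and 44.3 to 93.5% in *Gpr180*KO, the lowest being KO319HFD. The library KOhfd51 stood apart. Among genes whose longest annotated transcript has 8 kb or more (510 genes), its median level was 39.7% of the other *Gpr180*KO libraries, against 96.9 to 106% in each of the other 8 and 93.8 to 108% in the WT libraries. For genes under 1 kb it was 171%. Summed adipocyte markers reached 279 FPKM in KOhfd51, where the other *Gpr180*KO livers had 4.44 to 97.2 and WT livers 1.60 to 46.7 FPKM. Of the 5 markers summed, 4 were below the minimum of 1 FPKM, so the sum was mostly *Cfd*. It was at 18.8 ± 15.8 FPKM in WT and 52.3 ± 89.2 FPKM in *Gpr180*KO livers (SD, n = 9). All 8 hepatocyte markers were expressed, and 0 of 8 passed limma (0 also before adjustment). Lower in *Gpr180*KO were 5 of 8 stellate cell and fibroblast markers (median -0.75) and 1 of 10 macrophage markers (median -0.20). Of 5 bile duct markers listed, 3 were below the minimum of 1 FPKM and not tested. The other 2 were lower, *Spp1* (mean 133 FPKM in WT, 30.4 in *Gpr180*KO) and *Sox9* (1.44 and 0.859 FPKM, near that minimum). Of 7 endothelial markers 0 passed (0 also before adjustment). Their part in the differences of the 6 genes was not tested, and in whole liver fewer cells of a type and less RNA per cell cannot be told apart.

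**Figure D2:**
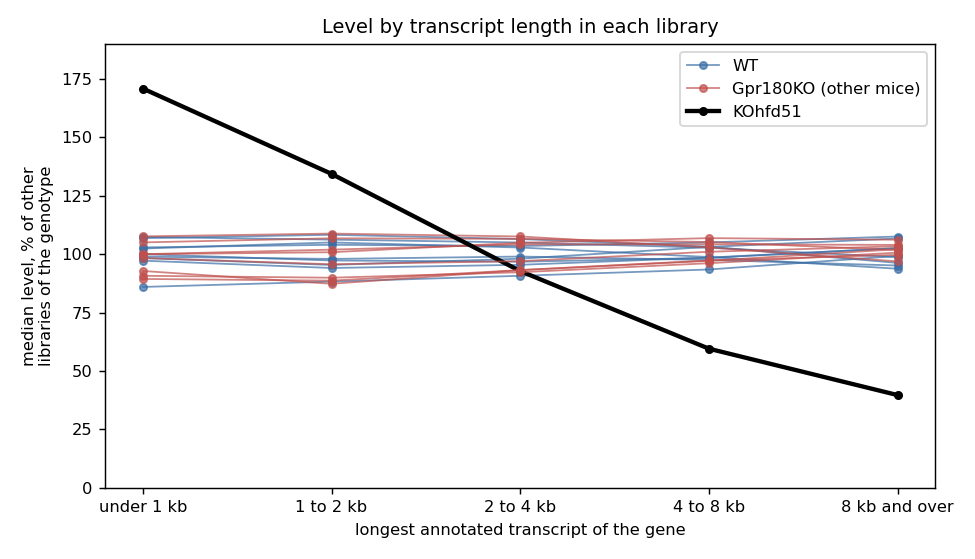
Median level of genes grouped by the length of their longest annotated transcript (horizontal axis, kb), as a percentage of the median of the other libraries of the same genotype (vertical axis), with 1 line per library. The KOhfd51 line falls from 171% for genes under 1 kb to 39.7% for genes of 8 kb and over, while the WT and the other Gpr180KO lines stay near 100%.

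In WT livers the 6 genes ranked *Lrp1* (62.8 FPKM), *Scarb1* (59.4), *Stard4* (28.5), *Npc1* (25.7), *Npc2* (22.6) and *Mylip* (5.17) by their means. The ranges of *Lrp1* and *Scarb1* overlapped, with *Lrp1* the higher in 6 of 9 livers, and those of *Stard4*, *Npc1* and *Npc2* overlapped as well. *Scarb1* lay above *Stard4*, and *Npc2* above *Mylip*, with no overlap. In *Gpr180*KO livers *Scarb1* (81.1 FPKM) ranked above *Lrp1* (67.3) in 8 of 9 livers, and *Npc1* (25.4), *Stard4* (23.0), *Npc2* (20.3) and *Mylip* (4.21) followed. The receptors at the surface were thus measured at a higher FPKM than the genes for handling cholesterol inside the cell in both genotypes, apart from the *Lrp1* value of KOhfd51.

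*Scarb1*, the HDL receptor, spans chr5:125277087-125341094 on the minus strand of GRCm38 (mm10). In WT livers its level had a lowest value of 48.9, a median of 59.6 and a highest value of 68.8 FPKM, and in *Gpr180*KO livers 71.1, 79.4 and 90.9 FPKM. Every *Gpr180*KO liver was above every WT liver, the closest pair being WThfd157 and KO320HFD. Means were 59.4 ± 6.79 and 81.1 ± 7.20 FPKM (SD, n = 9 each), and the log2 difference was 0.45 (standard error 0.077, 95% interval 0.29 to 0.61, adjusted p = 0.00677 by limma), a rise of 36.7% on that scale and 0.58 above the median of all genes. *Scarb1* ranked 16 among the 10835 genes by p. The exact permutation test over 48620 splits gave p = 4.11e-05 (two-sided), the smallest that 9 against 9 livers allow.

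Within the first naming style *Scarb1* was higher by 0.48 (adjusted p = 0.0365 by limma). Within the second the difference was 0.43 and did not pass (adjusted p = 0.0905 by limma, in a fit in which 1 gene of all was called). The rise differed between the styles by -0.04 (standard error 0.14), which did not pass either (limma interaction, adjusted p = 0.95). Without KOhfd51 it was 0.43, and scaling by median of ratios moved it to 0.60. A ratio within a library does not depend on scaling between libraries. Relative to *Npc1*, a comparison chosen after the values were seen, *Scarb1* was higher by 0.47 in *Gpr180*KO on the log2 scale (two-sided exact permutation p = 0.000288) and by 0.37 without KOhfd51 (p = 0.00074). Relative to *Lrp1*, a comparison also chosen after the values were seen, *Scarb1* was higher by 0.41 (exact p = 0.0107), or by 0.23 without KOhfd51 (exact p = 0.0208). *Pdzk1*, which encodes the adaptor that holds scavenger receptor B1 at the hepatocyte surface and was likewise named after its values were seen, was at 38.1 ± 4.56 FPKM in WT and 36.2 ± 6.23 FPKM in *Gpr180*KO livers (SD, n = 9), a log2 difference of -0.08 (adjusted p = 0.653 by limma).

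**Figure D3:**
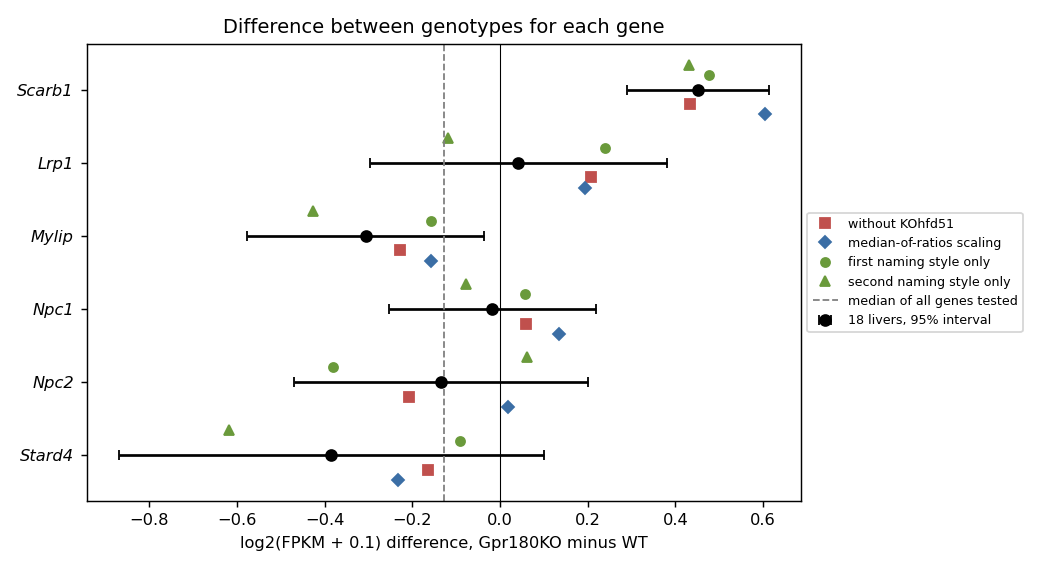
Differences in log2(FPKM + 0.1), Gpr180KO minus WT (horizontal axis), for the 6 genes, with black points and 95% intervals from limma on 18 livers and coloured points for the value without KOhfd51, with median-of-ratios scaling and in each naming style alone. The Scarb1 interval (0.29 to 0.61) lies clear of 0 and of the dashed line, the median of all genes (-0.13), and the points for Lrp1, Npc1 and Npc2 fall on both sides of 0.

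*Lrp1*, the gene of the large endocytic receptor for remnants, lies at chr10:127538158-127621148 (minus strand, GRCm38) and has a longest annotated transcript of 14.9 kb, which makes it the longest of the 6. Its lowest, median and highest values were 55.0, 63.3 and 70.6 FPKM in WT and 25.6, 71.5 and 82.5 FPKM in *Gpr180*KO livers. In *Gpr180*KO, 6 livers were above every WT liver while KOhfd51, at 25.6 FPKM, was below every WT liver and at 35.2% of the median of the other *Gpr180*KO livers. Means were 62.8 ± 4.69 and 67.3 ± 16.6 FPKM (SD, n = 9), with a log2 difference of 0.04 (standard error 0.16, adjusted p = 0.892 by limma, exact permutation p = 0.946). Without KOhfd51, *Lrp1* averaged 72.5 ± 5.96 FPKM in the 8 remaining *Gpr180*KO livers, and the difference of 0.21 (standard error 0.061) had an adjusted p of 0.0484 by limma and an exact permutation p of 0.00206. Leaving out the shallow library KO319HFD as well gave 0.19 (adjusted p = 0.0647 by limma), so this call depended on which libraries were kept. In the first naming style, which does not hold KOhfd51, the difference was 0.24 (adjusted p = 0.0593), and in the second, which does, it was -0.12 (adjusted p = 0.809).

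Of the other genes on a list of lipoprotein receptors and their relatives, 14 were tested, of which 1 fell and 0 rose with loss of *Gpr180* (median -0.27). The one that fell was *Cd36*, a receptor for fatty acids and oxidised lipoproteins and a relative of *Scarb1*, from 102 ± 23.2 to 63.4 ± 21.2 FPKM (SD, n = 9), with a log2 difference of -0.73 (adjusted p = 0.0337 by limma). The list had 0 genes called lower when any of W317HFD, W318HFD, W320HFD, WThfd133, KOhfd52, KOhfd53 or KOhfd54 was left out, 2 without WThfd157, KO321HFD or KOhfd51, and 3 without KO319HFD. *Lrp4*, a relative of *Lrp1*, had -0.65 (adjusted p = 0.0571), and *Lsr*, the lipolysis-stimulated lipoprotein receptor, had -0.37 (adjusted p = 0.0695). In this list 13 of the 14 had a negative difference, as did 76.9% of all genes. *Scarb1* was the only receptor of the list that was called higher with all 18 livers.

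*Mylip*, the ubiquitin ligase that shortens the life of lipoprotein receptors, occupies chr13:45389742-45411940 (plus strand, GRCm38). Because it is known as an LXR target, the 250 bases before its start (RefSeq, GRCm38.p6, chr13:45389492-45389741, plus strand) were searched on both strands for an LXR element (AGGTCA repeated in the same direction after 4 bases), a sterol regulatory element (TCACNCCAC), an E-box (CACGTG), an NF-Y box (CCAAT), a GC box (GGGCGG) and a TATA box (TATAAA). Capitals mark the matches in the sequence, 5′ to 3′:
Mylip: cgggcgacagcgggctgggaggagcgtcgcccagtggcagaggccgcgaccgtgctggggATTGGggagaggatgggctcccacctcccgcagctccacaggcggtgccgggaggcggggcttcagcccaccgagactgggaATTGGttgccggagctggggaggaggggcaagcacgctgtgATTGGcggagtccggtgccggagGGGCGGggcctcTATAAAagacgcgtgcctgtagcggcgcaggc
The window held 3 NF-Y boxes, 1 GC box and a TATA box, which 34.5%, 32.9% and 13.0% of 27025 promoter windows of this length hold. The other 3 motifs had 0 matches. They occur in 0.0111% (LXR element), 1.04% (sterol regulatory element) and 6.05% (E-box) of windows, and the search covered these letters in this window only. Windows were read for 3 of the 6 members. That of *Lrp1* held 1 GC box.

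*Mylip* had the lowest level of the 6 and a lower mean in *Gpr180*KO livers that did not pass the adjusted test. The lowest, median and highest values were 4.18, 4.95 and 6.34 FPKM in WT and 2.63, 4.53 and 5.22 FPKM in *Gpr180*KO. The ranges overlapped, with 8 of 9 *Gpr180*KO livers under the WT mean and 3 under every WT liver. From 5.17 ± 0.79 to 4.21 ± 0.88 FPKM (SD, n = 9), the log2 difference was -0.31 (standard error 0.13, limma p = 0.0275 unadjusted and 0.169 adjusted, exact permutation p = 0.028). Without KOhfd51, the lowest liver, it was -0.23 (adjusted p = 0.203), and with median-of-ratios scaling -0.16. The estimate of *Mylip* was also the widest: the interval given beside each value in the tables, whose level is not stated there, spanned a median of 32.3% of the FPKM, against 4.29% for *Lrp1* and 9.98% for *Scarb1*.

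Genes that act with *Mylip* and the receptors in endocytosis and sorting formed a list of receptor trafficking genes. Of the 22 others tested, 0 passed in either direction by limma (median -0.09). Before adjustment 4 of the 22 were below 0.05 on the lower side, where 19.6% of all genes were. The lowest p values were those of *Dab2*, an endocytic adaptor (-0.50, adjusted p = 0.0566), *Ube2d1*, a ubiquitin-conjugating enzyme that works with MYLIP (-0.30, adjusted p = 0.135), and *Ap2a1*, a subunit of the clathrin adaptor AP2 (-0.24, adjusted p = 0.165). Of 10 other LXR target genes tested, 1 was higher and 1 lower. *Abcg5*, which encodes a subunit of the transporter that secretes sterols into bile, rose from 31.9 ± 7.57 to 58.2 ± 24.3 FPKM (log2 difference 0.80, adjusted p = 0.0293 by limma), and its partner *Abcg8* had 0.81 (adjusted p = 0.052). *Smpdl3a*, a phosphodiesterase, fell from 35.0 ± 3.96 to 28.2 ± 2.39 FPKM (-0.31, adjusted p = 0.0318). With median-of-ratios scaling the count was 3 higher and 0 lower. Without W317HFD, W318HFD, WThfd133, KOhfd53 or KOhfd54 it was 0 in both directions, and without W320HFD or KOhfd52 it was 1 higher and 0 lower. Without KO319HFD, KO320HFD, KO321HFD or KOhfd51 it was 2 higher and 1 lower, and without WThfd157 it was 2 in each direction. The list's median of -0.26 covered members in both directions.

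*Npc2*, the soluble carrier of the lysosome, lies at chr12:84754559-84773112 (minus strand, GRCm38). Its promoter is shown because *Npc2* was the member called between naming styles. The 250 bases before its start (RefSeq, GRCm38.p6, chr12:84773113-84773362, minus strand) held 3 GC boxes and 2 NF-Y boxes, in capitals, and 0 of the other motifs:
Npc2: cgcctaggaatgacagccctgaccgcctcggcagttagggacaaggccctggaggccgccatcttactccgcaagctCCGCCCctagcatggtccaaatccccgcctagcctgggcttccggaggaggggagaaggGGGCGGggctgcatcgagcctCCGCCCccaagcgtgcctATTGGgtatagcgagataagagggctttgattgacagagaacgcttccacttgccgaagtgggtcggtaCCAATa
The last NF-Y box begins 6 bases before the start. In WT livers the lowest, median and highest values were 13.6, 21.5 and 31.0 FPKM, and in *Gpr180*KO livers 15.1, 19.2 and 29.8 FPKM, the last in KOhfd51. The ranges overlapped almost entirely. Means were 22.6 ± 6.17 and 20.3 ± 4.67 FPKM (SD, n = 9), with a log2 difference of -0.14 (standard error 0.16, adjusted p = 0.627 by limma, exact permutation p = 0.433).

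Among WT livers, *Npc2* was at 25.5 to 31.0 FPKM in the 4 livers of the first naming style and at 13.6 to 21.5 FPKM in the 5 of the second, with no overlap. How many of all genes separate in groups of 4 or 5 livers was not counted. In *Gpr180*KO livers *Npc2* was at 19.2 to 23.0 FPKM in the first style and at 15.1 to 29.8 FPKM in the second. The value of 29.8 FPKM was KOhfd51, and the other *Gpr180*KO livers of the second style were at 15.1 to 16.9 FPKM. Across both genotypes the second style was lower by 0.47 on the log2 scale (standard error 0.12, adjusted p = 0.0124 by limma with genotype in the model), and *Npc2* was 1 of 6 members called lower by style, where 19.1% of all genes were. Called higher by style were 0 of 6 members and 3.78% of all genes. Within the first style the genotypes differed by -0.38 (adjusted p = 0.0316 by limma within that style), from 28.6 ± 2.31 to 21.9 ± 1.81 FPKM (SD, n = 4), without overlap. In that fit 577 of 10907 genes were called lower. Within the second style, which holds KOhfd51, the difference was 0.06 (adjusted p = 0.869). Over both styles without KOhfd51 it was -0.21 (exact permutation p = 0.224). The test of the difference between the styles did not pass (0.44, standard error 0.23, limma interaction, adjusted p = 0.677). It called 0 of all genes, with 833 below 0.05 before adjustment.

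*Npc1*, the membrane exporter to which NPC2 delivers cholesterol, lies at chr18:12189694-12236386 (minus strand, GRCm38). It was at a lowest value of 21.6, a median of 23.9 and a highest value of 35.4 FPKM in WT and at 16.3, 26.6 and 30.2 FPKM in *Gpr180*KO livers. The ranges overlapped, and the lowest liver was again KOhfd51. Means were 25.7 ± 4.43 and 25.4 ± 3.97 FPKM (SD, n = 9), and the log2 difference of -0.02 (standard error 0.11, 95% interval -0.25 to 0.22) did not pass (adjusted p = 0.936 by limma). The direction was not stable: without KOhfd51 it was 0.06 and with median-of-ratios scaling 0.14. Of 15 other genes tested on a list of intracellular cholesterol transport, 0 passed in either direction by limma (median -0.08). At an unadjusted p under 0.05, 2 of the 15 were lower, where 19.6% of all genes were. The lowest p values were those of *Tmem97*, a regulator of NPC1 (-0.47, adjusted p = 0.0614), *Osbp*, a sterol carrier at membrane contacts (-0.26, adjusted p = 0.18), and *Lamp1*, a lysosomal membrane protein (-0.15, adjusted p = 0.232).

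*Stard4*, the cytosolic sterol carrier, lies at chr18:33201421-33213816 (minus strand, GRCm38), with a longest annotated transcript of 5.10 kb. Its lowest, median and highest values were 17.8, 29.2 and 36.8 FPKM in WT and 6.22, 24.5 and 30.8 FPKM in *Gpr180*KO livers. The lowest value, 6.22 FPKM in KOhfd51, was 25.3% of the median of the other *Gpr180*KO livers, which all lay within the WT range at 21.1 to 30.8 FPKM. The means of 28.5 ± 6.11 and 23.0 ± 7.15 FPKM (SD, n = 9) gave a log2 difference of -0.38 (standard error 0.23, 95% interval -0.87 to 0.10, adjusted p = 0.335 by limma, exact permutation p = 0.119). Without KOhfd51 it was -0.16 (adjusted p = 0.447 by limma).

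The sterol synthesis genes, SREBP2 targets like *Stard4*, fell more widely. Of 21 tested, 14 fell with loss of *Gpr180* and 0 rose (median -0.80). *Sqle*, squalene epoxidase, had a log2 difference of -1.63 (adjusted p = 0.00157 by limma), *Idi1*, isopentenyl-diphosphate isomerase, had -1.17 (adjusted p = 0.00677), and *Cyp51*, lanosterol demethylase, had -0.98 (adjusted p = 0.00637). With median-of-ratios scaling 6 of the 21 were lower. In the second naming style alone 0 were, in a fit that called 1 gene of 10725. In that style the summed level of the 21 genes was 1237 to 2896 FPKM in WT and 1082 to 1554 FPKM in *Gpr180*KO livers. With 1 library left out the count ran from 7 (without WThfd133) to 18 (without WThfd134), with 8 without KOhfd53 and 9 without W317HFD or W318HFD. Their mean differed by -0.76 (exact permutation p = 0.000535). *Stard4* lay below that mean by 1.29 in WT and by 0.91 in *Gpr180*KO livers on the log2 scale (*Stard4* minus the mean, -1.29 and -0.91). The distance was thus smaller by 0.37 in *Gpr180*KO, which did not pass with all 18 livers (exact permutation p = 0.174). Without KOhfd51 it was smaller by 0.61 (exact p = 0.000494), and in 7 *Gpr180*KO livers *Stard4* was nearer to the mean than in every WT liver. This comparison was chosen after the values were seen.

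**Figure D4:**
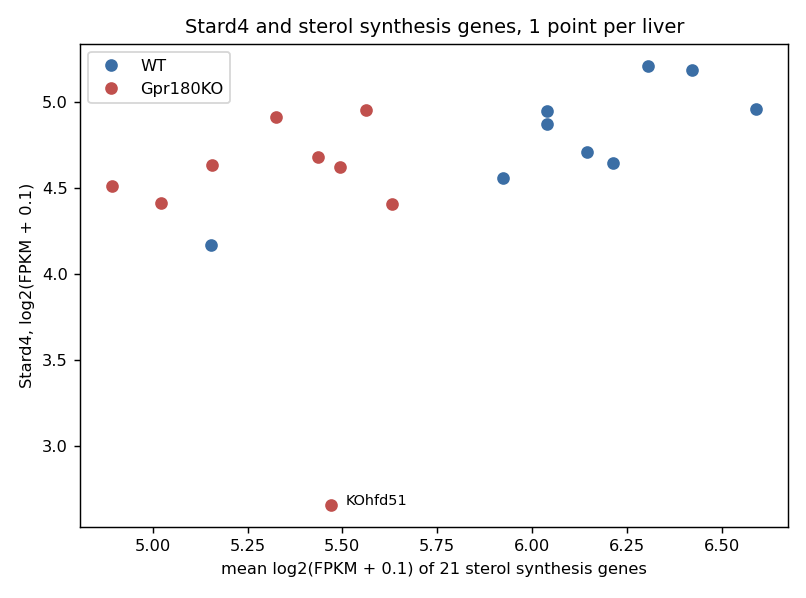
Stard4 (vertical axis) against the mean of 21 sterol synthesis genes (horizontal axis), both as log2(FPKM + 0.1), with 1 point per liver, WT in blue and Gpr180KO in red. All 9 Gpr180KO livers lie below the WT mean of 6.09 on the horizontal axis, while on the vertical axis they share the WT range except for KOhfd51.

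Relations of the 6 genes with partners of known function were computed within each genotype, 12 in all over 9 livers each, and 0 passed at an adjusted p under 0.05 by exact permutation, with 3 below 0.05 before adjustment. *Stard4* and the sterol synthesis genes had r = 0.83 and rho = 0.78 in WT livers (exact permutation p = 0.00718 and 0.0172, adjusted 0.0861 and 0.207), and r = 0.71 without the 2 livers farthest out. In *Gpr180*KO livers r was -0.10 and rho 0.02 (exact p = 0.849 and 0.982, adjusted 0.913 and 0.982). For *Mylip* and the LXR targets r was 0.55 in WT, where it dropped to 0.05 without the 2 farthest livers, and 0.75 in *Gpr180*KO (exact p = 0.127 and 0.0237, adjusted 0.218 and 0.0953), with rho of 0.53 and 0.43 (exact p = 0.148 and 0.25, adjusted 0.485 and 0.499). *Npc2* and the macrophage markers had r = 0.56 in WT and 0.75 in *Gpr180*KO livers (exact p = 0.118 and 0.0238, adjusted 0.218 and 0.0953), with rho of 0.52 and 0.68 (exact p = 0.162 and 0.0503, adjusted 0.485 and 0.302). Without the 2 farthest livers r was 0.11 in WT and 0.76 in *Gpr180*KO. With every library scaled to the same FPKM sum (TPM scaling), it was 0.52 and 0.22 (exact p = 0.15 and 0.555). The adjusted p of r for *Npc1* with *Npc2*, *Lrp1* with stellate cell markers and *Scarb1* with hepatocyte markers lay between 0.176 and 0.913.

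Genes whose pattern was most like each member over the 18 livers, by Pearson's r after subtracting each genotype's mean, are given as a description. For *Scarb1* they were *Igfbp2* (r = 0.77), *Grb14* (0.77) and *Cdo1* (0.73). *Igfbp2*, an insulin-like growth factor binding protein, was also higher in *Gpr180*KO livers, at 136 FPKM in WT and 263 FPKM in *Gpr180*KO (log2 difference 0.96, adjusted p = 0.0124 by limma). For *Mylip* they were *Lgr5* (0.87) and *Lpin2* (0.86), for *Npc1* *Ppara* (0.88) and *Rnf152* (0.87), and for *Npc2* *Sdf4* (0.95), *Arpc1a* (0.94) and *Ctsd* (0.94), the gene of the lysosomal protease cathepsin D. *Lrp1* was closest to *Helz2* (0.98), *Rassf8* (0.98) and *Prpf8* (0.97), and *Stard4* to *Echdc1* (0.96), *Asah2* (0.95) and *Thada* (0.94). All 18 points share the library KOhfd51, and in WT livers alone the r of *Lrp1* with these was 0.79, 0.55 and 0.72.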

How the data were processed

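Liver poly(A) RNA of 18 mice (9 WT, 9 *Gpr180*KO, HFD) was sequenced as single reads. Per the labels and the study's methods, the authors aligned the reads to mm10 (GRCm38) with the TopHat application and deposited FPKM per gene entry, with an FPKM interval. The FPKM are described as output of that alignment application, and the program within it that computed them and the level of the interval are not given in the sources used here. With FPKM alone, no count model was run, and depth is relative: FPKM moves in steps of 1 read, and low genes give the step of each library against that of the deepest.

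Entries sharing a symbol were summed, and 24 genes with a failed estimate were left out, none of them a member. Genotypes were compared with limma 3.58.1 (R 4.3.3, eBayes with trend) on log2(FPKM + 0.1), which understates changes of low genes, over genes with a mean of at least 1 FPKM. Members were also compared by two-sided exact permutation (Python 3.11.15, scipy 1.17.1). Naming style was tested as an interaction and, after seeing the data, as a term. Each library is 1 mouse, so p-values measure the spread between mice. Transcript lengths were those of GENCODE for GRCm38 (94.4% of genes tested matched). Promoter windows were from RefSeq. The members and all gene lists were chosen with earlier results of these data known. Named beyond the members and *Gpr180* are, per pathway list, the 3 other genes with the lowest p and, per member, the 3 genes most like it (2 of these genes are not reported here). *Pdzk1* was added after its values were seen, as were the markers *Cfd*, *Spp1* and *Sox9*. The marker lists cover hepatocytes, macrophages, stellate cells, endothelium, bile duct, lymphocytes (0 of 7 genes tested, summed level 1.94 to 6.03 FPKM) and adipocytes (1 of 5 tested, not called). Tried besides were a pseudocount of 1 or 0.01, a minimum of 0.1 or 5 FPKM or none, 3 other scalings, naming style as a block or alone, eBayes without trend or robust, and each library left out. The steps were tested on simulated data.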

Additional observations from a re-analysis of the deposited data

Results flagged for a closer look

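Of 12 groups of 9 livers examined (6 genes in each genotype), 3 held a liver whose gap to its nearest neighbour was wider than Dixon's 95% limit for the range of its group. Chance alone gives such a gap in about 1 in 20 groups. All 3 were the library KOhfd51 in the *Gpr180*KO group: *Lrp1* at 25.6 FPKM, where the next liver was at 64.6, *Npc1* at 16.3 FPKM, where the next was at 23.9, and *Stard4* at 6.22 FPKM, where the next was at 21.1. The same library had low levels of genes with long transcripts and the highest adipocyte marker sum, which was mostly *Cfd*. Its median was 59.5% of the other *Gpr180*KO libraries for genes of 4 to 8 kb and 39.7% for genes of 8 kb and over. Against the median of the other *Gpr180*KO livers, *Npc1* (5.76 kb) was at 60.9%, *Stard4* (5.10 kb) at 25.3% and *Lrp1* (14.9 kb) at 35.2%. Whether transcript length or what lies behind that marker sum bears on these 3 values was not tested.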

How the results depend on the processing

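*Scarb1* stayed higher under every alternative run (0.41 to 0.60), with an adjusted p of 0.0905 in the second naming style alone and under 0.05 in all others. Members called were 1 throughout, except 2 with the first style alone (*Npc2* added), 0 with the second alone, and 1 to 2 when each library was left out (*Lrp1* added without KOhfd51). Genes called, 513 as reported, were 837 and 238 with minimums of 0.1 and 5 FPKM, 293 with median-of-ratios and 282 with 75th percentile scaling, 1153 with the style as a block, 1 with the second style alone, 925 without KOhfd51 and KO319HFD (chosen after seeing the data), and 129 (without WThfd133) to 920 (without WThfd157) with 1 library left out. The difference of *Npc1* turned positive with median-of-ratios scaling (0.14, with or without the style as a block), 75th percentile scaling (0.103), the first style alone (0.0567), without KOhfd51 and KO319HFD (0.0586), and with 1 library left out it spanned -0.0513 to 0.0598. *Npc2* turned positive with median-of-ratios scaling (0.0172, with or without the block) and in the second style (0.0604). *Lrp1* turned negative in the second style (-0.12), and leaving out 1 library gave -0.00329 (without KO322HFD) to 0.21. Relations passing the adjusted threshold went from 0 to 2 with TPM scaling, *Stard4* with sterol synthesis genes in WT and *Mylip* with LXR targets in *Gpr180*KO. With that scaling, r in *Gpr180*KO livers went from 0.75 to 0.22 for *Npc2* with macrophage markers. For *Stard4* with sterol synthesis genes it went from -0.10 to 0.42. The cause of these moves was not tested. *Mylip* was below the minimum of 5 FPKM and has no value there. No paired analysis was possible because nothing ties the mouse numbers to a litter or batch (W319HFD with KO319HFD and W320HFD with KO320HFD share a number only, and the other mice have no partner). Without counts, precision at low levels, as for *Mylip*, rests on the interval deposited beside each FPKM.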
